A study of Homo sapiens with 18 samples.

Results

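Libraries from cells that carried guides against CDKN1A were compared directly with libraries from cells that carried guides against SPP1, so that each knockdown served as the reference for the other. The members are 10 of the 18 libraries of the series, chosen by the target named in their titles: 4 CDKN1A libraries, from 2 guides with biological replicates 1 and 2 each, and 6 SPP1 libraries, from 3 guides with the same replicates. All of them are poly(A)-selected bulk RNA-seq of hiF-T cells, a human line of wild-type genotype that resembles fibroblasts, comes from BJ skin fibroblasts and expresses telomerase (hTERT) inducibly, and each received a CRISPR guide described as a knockdown. The 4 control libraries, from 2 guides on the vector backbone, have the same cell background. They are given as a level beside the results, with tests against them for a few genes, and they also entered the fit. Not given in these sources are the guide sequences, how a guide lowers the mRNA, whether hTERT was induced, and whether biological replicates were separate cultures, so p-values measure the spread between these samples, which may be technical in part.

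CDKN1A encodes p21, an inhibitor of cyclin-dependent kinases. It is transcribed by p53 after DNA damage and other stress, and it slows entry into S phase and, through the pocket proteins RBL1 and RBL2, holds down genes for DNA replication and mitosis. SPP1 encodes osteopontin, a secreted phosphoprotein of the SIBLING family that binds CD44 and integrins and is known from bone matrix, wound repair and inflammation.

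Estimated counts per library summed, in units of 1e6, to 13.306 to 16.203 in the CDKN1A group and 11.907 to 16.51 in the SPP1 group, and 12478 to 13161 genes had at least 10 counts. Mitochondrial genes held 1.815 to 2.419% of the counts, with the lowest share in SPP1 guide 3 replicate 2. That library also stood apart on the second principal component of the 10 libraries (28.1, where the others lay between -22.5 and 8.5), and the libraries of SPP1 guide 3 differed from each other more than those of any other guide (chi-square per gene 15.37, against 2.411 to 5.017). The first component, with 21.5% of the variance, placed the CDKN1A libraries at 13.6 to 27.3 and the SPP1 libraries at -23.0 to -7.2. Of the whole variation of log2 CPM (counts per 1e6, scaled by edgeR's TMM factors) between these libraries, the difference of the groups held 20.5%, that of guides with 1 target 34.1% and that of the libraries of a guide 45.4%. Among 14 fibroblast markers, VIM, FN1, COL1A1 and COL1A2 were abundant. The 14 summed to 12064 to 13168 TPM (transcripts per 1e6) in the CDKN1A group and 10655 to 13414 in the SPP1 group. Several others were low: COL3A1, PDGFRA, LUM and DCN reached at most 8.17, 5.88, 3.24 and 16.5 TPM in the 10 libraries. THY1, a defining fibroblast surface marker, stayed at or under 1.19 TPM in all 10 libraries, and of these markers FAP alone passed the test (log2 fold change 0.35, adjusted p = 0.0166, edgeR). The 9 keratinocyte markers summed to 143 to 165 TPM in the CDKN1A group and 153 to 196 in the SPP1 group, nearly all of it KRT10, and KRT1 was at 0 in all 10 libraries. Melanocyte markers (7 genes) summed to at most 5.26 TPM, endothelial markers (7 genes, nearly all TEK) to 19 to 30.7 TPM and leukocyte markers (7 genes, mostly CD68) to 81.2 to 101 TPM, and no member of these lists was called. Smooth muscle markers (6 genes) summed to 313 to 361 TPM in the CDKN1A libraries and 316 to 406 in the SPP1 libraries. SMTN and ACTG2 held most of that level, and no smooth muscle marker was called. In bulk RNA, fewer cells of a type and less RNA per cell cannot be told apart.

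The targeted mRNAs were examined first. CDKN1A mRNA (chromosome 6, 36676460 to 36687339, GRCh38) was at 290 and 275 CPM with guide 1 against CDKN1A and at 435 and 427 CPM with guide 2. In the SPP1 libraries its lowest, median and highest levels were 411, 490 and 543 CPM, so the groups overlapped: the libraries of guide 2 lay above the lowest SPP1 library. The group means were 357 ± 86.2 CPM (SD, n = 4) and 492 ± 47.4 CPM (n = 6), with 612 ± 65.9 CPM (range 540 to 695 CPM, n = 4) in the controls. All CDKN1A libraries, those of guide 2 included, lay below the lowest control. Against the controls CDKN1A mRNA had a log2 difference of -0.78 in the CDKN1A libraries (adjusted p = 0.00394, edgeR). In the SPP1 libraries it was -0.32 and did not pass the test (adjusted p = 0.116, edgeR). The log2 fold change, CDKN1A minus SPP1, was -0.46 ± 0.12 (SE), a level of 72.5% of that in the SPP1 libraries, with an adjusted p of 0.0142 (edgeR's quasi-likelihood test, Benjamini-Hochberg) and p = 0.0143 in a two-sided exact permutation test over 210 arrangements of the samples, whose smallest possible p is 0.00476. That test takes the 10 libraries as independent, whereas the libraries of a guide share it: with the mean of each guide as 1 value (2 against 3 guides, added after seeing the data) there are 10 arrangements, and the exact permutation p was 0.1, the smallest they can give. With both libraries of a guide summed the edgeR call was lost (adjusted p = 0.173). The call rested on guide 1 against CDKN1A. Without CDKN1A guide 1 replicate 1 the fold change was -0.37 (adjusted p = 0.0539), without replicate 2 of that guide -0.36 (0.0568), and without both -0.19 (0.283). CDKN1A guide 2 set against each SPP1 guide gave log2 fold changes of -0.26 to -0.13, with adjusted p-values between 0.116 and 0.388.

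SPP1 mRNA (chromosome 4, 87975650 to 87983426) was at 106, 99.7, 130 and 131 CPM in the CDKN1A libraries. Its lowest, median and highest levels in the SPP1 libraries were 21.7, 37.2 and 63 CPM, and the groups did not overlap. The means were 117 ± 16 CPM (SD, n = 4) and 39.7 ± 17.7 CPM (n = 6), a 2.94-fold difference (log2 1.56 ± 0.22, adjusted p = 1.70e-04, edgeR; two-sided exact permutation p = 0.00952 over libraries, and 0.1 over guide means, the smallest possible there). With both libraries of a guide summed, the edgeR call was kept (adjusted p = 0.0249). The controls lay between the groups, at 64.6 ± 7.28 CPM (range 55.2 to 72.7 CPM, n = 4). Against those controls SPP1 mRNA had a log2 difference of -0.70 in the SPP1 libraries and of 0.85 in the CDKN1A libraries, and neither difference passed the test (adjusted p = 0.0695 and 0.0645, edgeR). Among the SPP1 libraries, both of guide 1 (24.2 and 26.9 CPM) and guide 3 replicate 2 (21.7 CPM) were low, guide 2 was at 47.4 and 55.2 CPM, and guide 3 replicate 1, at 63 CPM, lay inside the range of the controls.

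**Figure D1:**
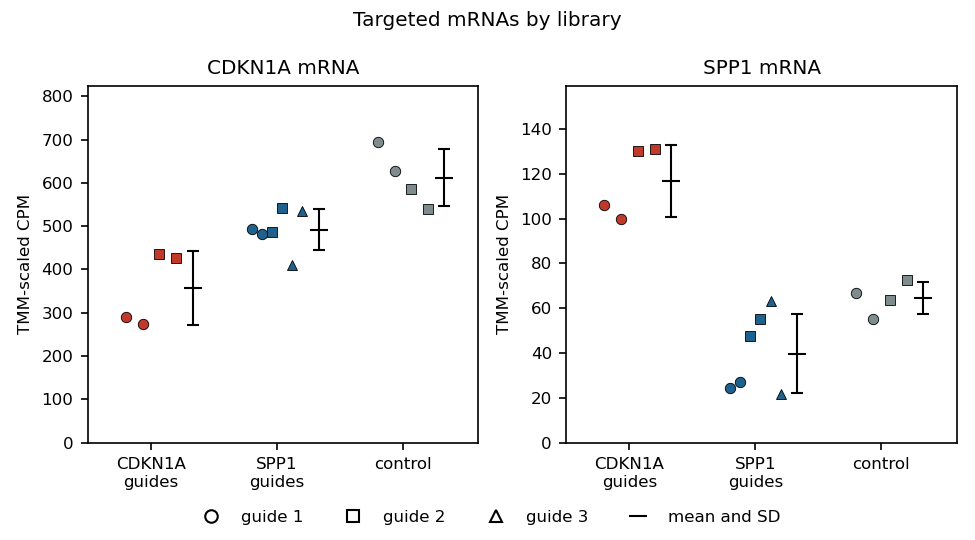
Level of the CDKN1A mRNA (left) and the SPP1 mRNA (right) in TMM-scaled CPM in each CDKN1A, SPP1 and control library, with the guide shown by the symbol and the group mean and SD beside the points. For CDKN1A mRNA the libraries of CDKN1A guide 2 (435 and 427 CPM) overlap the SPP1 libraries, whereas for SPP1 mRNA the 4 CDKN1A libraries (99.7 to 131 CPM) all lie above the SPP1 libraries.

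Of 13527 genes tested across the 2 groups, 1628 (12%) were called at an adjusted p under 0.05: 862 (6.37%) were higher in the CDKN1A libraries and 766 (5.66%) were higher in the SPP1 libraries. Most differences were small. The median absolute log2 fold change of the called genes was 0.3, 84.0% of them differed by less than 1.5-fold, and 98 differed by at least 2-fold, 70 of these higher in the CDKN1A libraries and 28 in the SPP1 libraries. The median log2 fold change of all genes tested was -0.008. Libraries of the groups did not overlap for 1554 genes (11.5% of those tested), 1152 of which were called. The control mean lay between the group means for 695 of the 862 genes higher in the CDKN1A libraries and for 612 of the 766 higher in the SPP1 libraries. Among the former, the median log2 difference from control was 0.15 in the CDKN1A libraries and -0.16 in the SPP1 libraries. Both differences share the control libraries. The called genes were selected for a difference between the groups, which by itself tends to place the control mean between them. The share over all genes tested was not computed, so these counts and medians do not show opposite shifts from control. Against control itself, 271 genes (2%) were called in the CDKN1A libraries and 738 (5.46%) in the SPP1 libraries. All these calls take the libraries of a guide as independent, although they share the guide. Between the CDKN1A and SPP1 groups, 775 genes were called by limma voom with the guide as a correlated block. With both libraries of a guide summed into 1 sample, edgeR called 111.

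**Figure D2:**
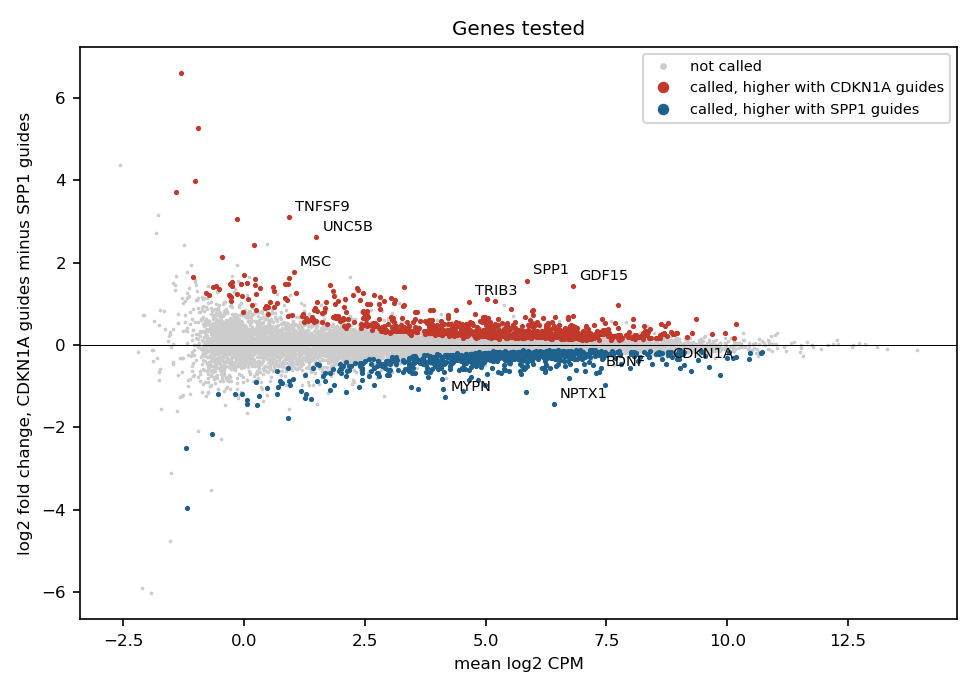
Log2 fold change (CDKN1A guides minus SPP1 guides) against mean log2 CPM for 13425 of the genes tested, with called genes in red (higher with CDKN1A guides) or blue (higher with SPP1 guides); 102 genes, left unnamed as described with the methods, are not plotted. Called genes sit close to 0 at high expression, the widest differences lie at a mean log2 CPM under 1, and at higher levels UNC5B, MSC, SPP1 and GDF15 stand above the rest while NPTX1 and MYPN stand below.

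The number of called genes depended on the guide. In a fit with a coefficient per guide, CDKN1A guide 1 differed from SPP1 guides 1, 2 and 3 in 809, 626 and 1137 genes (5.98, 4.63 and 8.41%), and CDKN1A guide 2 in 1601, 1310 and 2082 genes (11.8, 9.68 and 15.4%). Of the 1628 genes called between the groups, 1597 had each CDKN1A guide mean on the same side of every SPP1 guide mean, and 141 were called in all 6 guide pairs in the same direction. These genes were selected for a group difference in the same libraries, which by itself tends to separate the guide means. Neither share was computed over all genes tested, and the guide pairs share libraries, so they are not independent of each other. Without CDKN1A guide 2 the groups differed in 299 genes, 288 of them among the 1628 and in the same direction. Without CDKN1A guide 1 they differed in 912 genes, 776 of them shared. Leaving out only CDKN1A guide 2 replicate 1 or replicate 2 left 862 and 863 called genes.

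Most p53 targets examined were called higher in the CDKN1A libraries. CDKN1A, itself a p53 target, was lower there in the group comparison, a call that rested on CDKN1A guide 1. Of 30 targets besides CDKN1A, 18 were called higher in the CDKN1A libraries, 0 were called higher in the SPP1 libraries, and 12 were not called. Their median log2 fold change was 0.36 (range -0.03 to 1.42), beside -0.008 over all genes. At an unadjusted p under 0.05, 25 were higher in the CDKN1A libraries and 0 in the SPP1 libraries, and DESeq2 called 20 and 0 and limma voom 16 and 0. This list was drawn up with earlier results on these libraries known, so its direction is a description and not independent evidence. GDF15, a stress-induced secreted cytokine of the TGF-beta superfamily (chromosome 19, 18374731 to 18389176), led the list by p. It was at 200, 198, 212 and 203 CPM in the CDKN1A libraries, and at 62.1, 76.3 and 91.1 CPM (lowest, median, highest) in the SPP1 libraries. The groups were far apart, and the 4 CDKN1A libraries were close to each other irrespective of guide. The difference was 2.67-fold (log2 1.42 ± 0.08, adjusted p = 3.46e-09, edgeR), and it was called in every guide pair, with log2 fold changes of 1.21 to 1.61. The controls lay between the groups, at 131 CPM (range 119 to 147 CPM), with log2 differences from them of 0.64 in the CDKN1A libraries (adjusted p = 0.00139) and -0.78 in the SPP1 libraries (adjusted p = 2.35e-04).

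Other p53 targets had smaller differences of the same kind. TP53INP1, which promotes autophagy and cell death, was at 19.6, 20.9, 21 and 19.5 CPM in the CDKN1A libraries and at 9.41, 11.1 and 13 CPM (lowest, median, highest) in the SPP1 libraries (log2 0.85 ± 0.09, adjusted p = 1.55e-05). DDB2, a damage sensor of nucleotide excision repair, was at 42.5, 41, 41.1 and 39.9 CPM against 24.2, 27.1 and 28.9 CPM (log2 0.62 ± 0.07, adjusted p = 1.71e-05). SESN2, a sestrin that restrains mTORC1 and that also belongs to the integrated stress response list, was at 14.5, 14.4, 17.5 and 18.3 CPM against 7.99, 9.11 and 11.1 CPM (log2 0.80 ± 0.10, adjusted p = 7.80e-05). None of these 3 genes had overlapping groups, and each kept its call in every alternative that was run. The ferredoxin reductase FDXR (log2 0.85), the death receptors FAS (0.58) and TNFRSF10B (0.36), the ubiquitin ligase MDM2, which targets p53 itself (0.63), the antiproliferative gene BTG2 (1.33) and the BH3-only gene BBC3 (0.87) were also called. BAX and XPC were among the 12 members that were not called. The count of called p53 targets was 13 without CDKN1A guide 1, 13 without CDKN1A guide 2, 20 without SPP1 guide 3 replicate 2 and 9 when both libraries of a guide were summed into 1 sample.

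**Figure D3:**
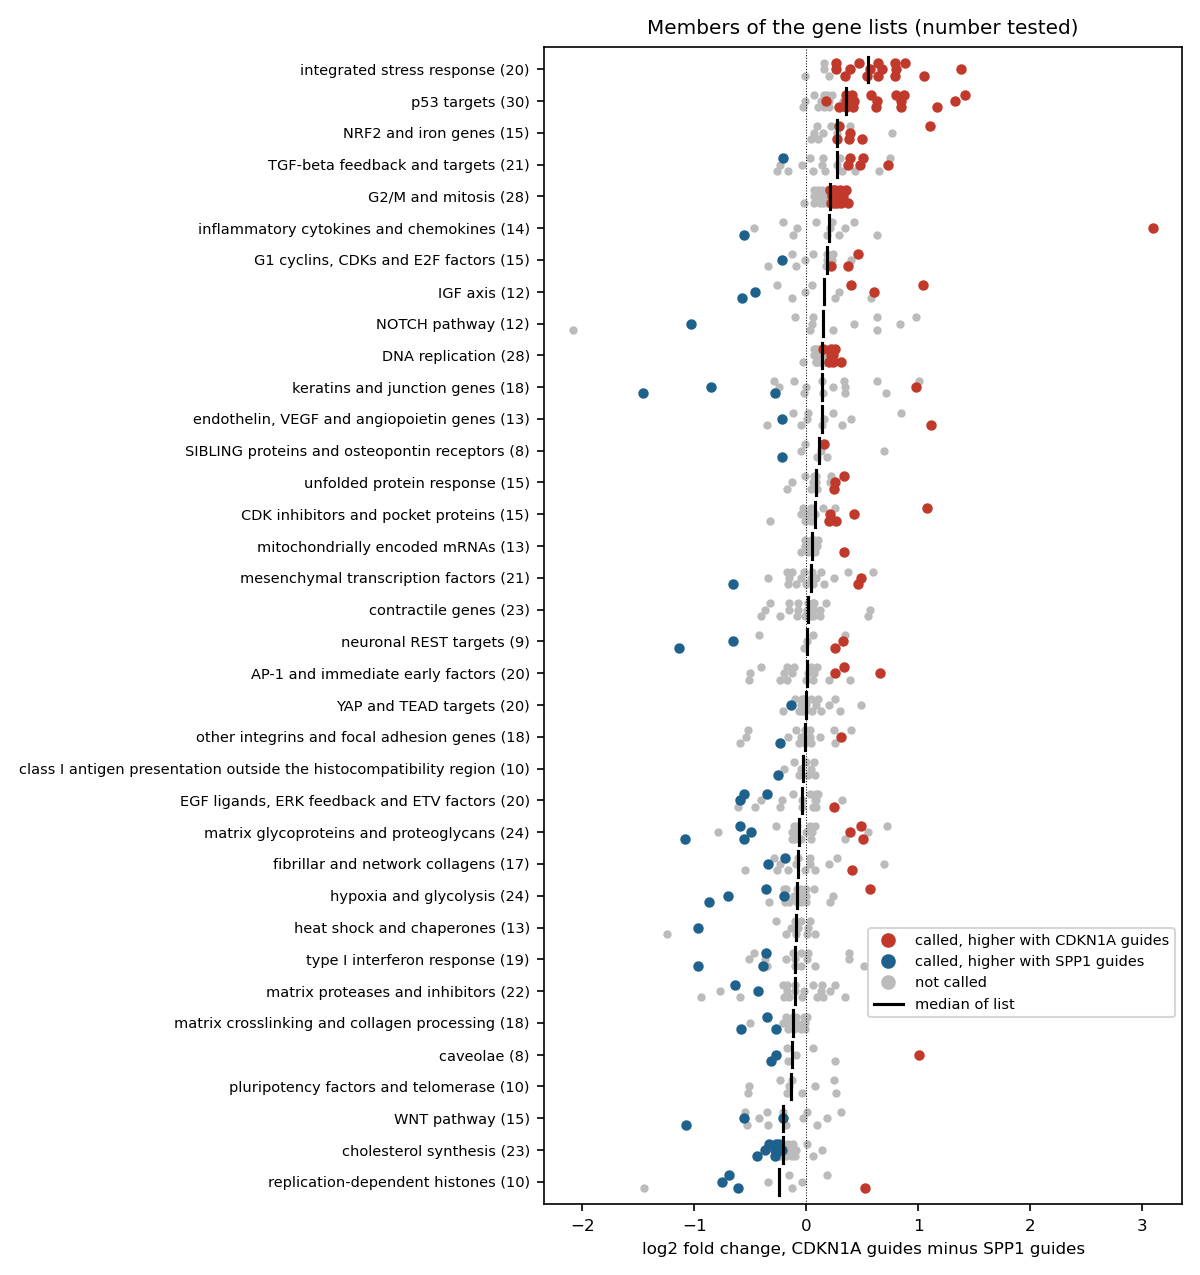
Log2 fold change (CDKN1A guides minus SPP1 guides) of each tested member of the 36 gene lists, sorted by list median (black bar), with called members in red or blue. The integrated stress response and p53 lists have the highest medians (0.55 and 0.36) and hold red but no blue points, and cholesterol synthesis (median -0.21) holds blue but no red points.

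Of the 36 lists, that of the integrated stress response had the largest share of called members (80.0%, beside 12% of all genes tested). In this response, kinases that sense amino acid shortage, unfolded protein and other stress phosphorylate eIF2 alpha, translation of the transcription factor ATF4 rises, and ATF4 drives genes for amino acid synthesis and transport. Of 20 members, 16 were called higher in the CDKN1A libraries and 0 in the SPP1 libraries, with a median log2 fold change of 0.55 (range -0.01 to 1.38). DESeq2 also called 16 and 0 and limma voom 12 and 0, and at an unadjusted p under 0.05 there were 17 and 0. The lists were drawn up with earlier results on these libraries known, so their ranking is a description and not independent evidence. Among the regulators, TRIB3, a pseudokinase that feeds back on ATF4, was at 29.2 and 28.9 CPM with CDKN1A guide 1 and at 49.5 and 49.4 CPM with guide 2, and at 16.4, 19.1 and 22.5 CPM (lowest, median, highest) in the SPP1 libraries. The 4 CDKN1A libraries lay above all SPP1 libraries, those of guide 2 by more, and above the controls (20.8 to 25.2 CPM). Its log2 fold change was 1.05 ± 0.14 (adjusted p = 1.06e-04), and by guide pair it was 0.49 to 0.71 for guide 1 and 1.26 to 1.48 for guide 2. ATF4 mRNA (0.27, adjusted p = 0.0129), ATF3 (0.79) and CEBPB (0.35) were also called. ATF3 was highest in the controls, at 12.4 CPM, against 7.89 CPM in the CDKN1A libraries and 4.49 CPM in the SPP1 libraries.

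Among the enzymes and transporters, ASNS, which makes asparagine (chromosome 7, 97852118 to 97872542), was at 54.7, 54.9, 78.6 and 81.7 CPM in the CDKN1A libraries and at 29, 34.9 and 50.2 CPM in the SPP1 libraries. The groups did not overlap, and the libraries of CDKN1A guide 2 were the highest (log2 0.88 ± 0.14, adjusted p = 5.81e-04). The glutathione-degrading enzyme CHAC1 was at 8.95 ± 0.726 CPM against 5.75 ± 0.793 CPM (log2 0.64, adjusted p = 5.94e-04). PSAT1 and PHGDH of serine synthesis (0.68 and 0.47), the mitochondrial folate enzyme MTHFD2 (0.39), the amino acid carriers SLC7A5 (0.64), SLC7A11 (0.54) and SLC3A2 (0.27), and the mTORC1 inhibitor DDIT4 (1.38) were called in the same direction. DDIT3, ALDH1L2, SHMT2 and STC2 were not called. Without CDKN1A guide 2 the number of called members was 4 (13 at an unadjusted p under 0.05), and it was 9 and 10 without replicate 1 or replicate 2 of that guide. It was 16 without CDKN1A guide 1, 17 without SPP1 guide 3 replicate 2, and 2 with both libraries of a guide summed. Whether the CDKN1A guides differed from each other in these genes was not tested.

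Promoters of this list were searched because its members moved together and because ATF4 is known to bind the composite C/EBP-ATF element. In windows from 250 bases before to 50 bases after the RefSeq gene start (GRCh38.p14), the letters TGATGNAA, on either strand, occurred in 4 of the 16 list members with a window and in 1.79% of the 10262 windows of genes tested here. The 3 sites that lie before the start are printed 5′ to 3′ along the gene's strand to show what was matched, with the matched letters in capitals; in CHAC1 the match is on the opposite strand.
ATF3, chr1:212565190-212565249, plus strand: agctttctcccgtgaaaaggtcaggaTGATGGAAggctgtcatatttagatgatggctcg
ASNS, chr7:97872458-97872487, minus strand: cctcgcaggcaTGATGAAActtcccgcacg
CHAC1, chr15:40953251-40953280, plus strand: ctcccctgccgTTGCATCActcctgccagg
Counted from the start, the matches begin at position -68 in ASNS, -191 in ATF3 and -209 in CHAC1, and that of SLC3A2 lies after the start. A match of letters is a description and does not show a bound site.

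Stress genes of neighbouring pathways were called less evenly. Of 15 tested NRF2 targets and iron genes, 6 were called higher in the CDKN1A libraries and 0 in the SPP1 libraries (median log2 fold change 0.28), with 8 and 0 at an unadjusted p under 0.05, 7 and 0 by DESeq2 and 4 and 0 by limma voom. The 6 calls by edgeR are 40.0% of the list, beside 12% of all genes tested. HMOX1, the heme oxygenase, was at 32.3 and 30.8 CPM with CDKN1A guide 1 and at 81.3 and 73.3 CPM with guide 2, against 18.7, 24.8 and 31.3 CPM in the SPP1 libraries, so guide 1 overlapped the SPP1 group and guide 2 lay above it (log2 1.11 ± 0.25, adjusted p = 0.00747). The controls, at 53.6 CPM, lay between the CDKN1A guides and above all SPP1 libraries. The glutathione synthesis genes GCLM (0.38) and GCLC (0.28), the thioredoxin reductase TXNRD1 (0.29) and the ferritin heavy chain FTH1 (0.50) were also called; FTH1 has near-identical processed copies, among which the authors' counting could divide reads. Without CDKN1A guide 2, 0 of these members were called by edgeR (2 at an unadjusted p under 0.05), and without CDKN1A guide 1, 7 were called. With both libraries of a guide summed, 0 were called (6 at an unadjusted p under 0.05). Of 15 genes of the endoplasmic reticulum unfolded protein response, HERPUD1 (0.26), HYOU1 (0.25) and ERN1 (0.34) were called higher in the CDKN1A libraries and 12 were not called. HYOU1 and ERN1 had overlapping groups, and their calls ended when any of several libraries was left out (adjusted p up to 0.135 and 0.151 without single CDKN1A guide 2 libraries).

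Of 28 G2/M and mitosis genes, 14 were called higher in the CDKN1A libraries, 0 in the SPP1 libraries and 14 were not called, with a median log2 fold change of 0.21 (range -0.02 to 0.37). At an unadjusted p under 0.05 the counts were 19 and 0, by DESeq2 16 and 0 and by limma voom 10 and 0. FOXM1, the transcription factor of G2/M genes, was at 195, 186, 186 and 188 CPM in the CDKN1A libraries and at 146, 151 and 165 CPM (lowest, median, highest) in the SPP1 libraries. The groups did not overlap, the difference was 1.24-fold (log2 0.31 ± 0.05, adjusted p = 3.16e-04), and the controls lay at 155 to 163 CPM. The spindle checkpoint kinase TTK was at 57.5, 61.1, 55.5 and 57.6 CPM against 43, 44.5 and 47.9 CPM (log2 0.36 ± 0.06, adjusted p = 4.85e-04). The kinetochore protein CENPF was at 366, 368, 359 and 361 CPM against 267, 288 and 319 CPM (log2 0.33 ± 0.05, adjusted p = 5.06e-04). The motors CENPE (0.37), KIF11 (0.28) and KIF23 (0.26), the proliferation marker MKI67 (0.26), the cyclin CCNB2 (0.29) and the topoisomerase TOP2A (0.25) were called as well. CCNB1, PLK1, AURKA, AURKB and BIRC5 were not called, and for each of these 5 the highest SPP1 library was SPP1 guide 3 replicate 2. The number of called members was 16 without that library, 4 without CDKN1A guide 1, 6 without CDKN1A guide 2, 8 with an offset for transcript length and 1 with both libraries of a guide summed.

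The windows of these genes were searched for TTTGAA, the core of the cell cycle genes homology region (CHR) through which the DREAM and MuvB complexes are known to act. It occurred in 15 of the 22 list members with a window, called or not, and in 9.92% of the windows of genes tested. Of the 11 called members with a window, 9 held it. Sites before the start in 4 called genes are printed to show their sequence, with the match in capitals.
MKI67, chr10:128126439-128126496, minus strand: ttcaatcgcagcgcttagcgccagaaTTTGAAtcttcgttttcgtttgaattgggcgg
CDC20, chr1:43358890-43358947, plus strand: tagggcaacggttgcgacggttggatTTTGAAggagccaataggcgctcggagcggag
BUB1B, chr15:40161035-40161062, plus strand: ggaccgttaaaTTTGAAacttggcggct
CCNB2, chr15:59105106-59105133, plus strand: gcgacgcggtaTTTGAAtcctggaacaa
The MKI67 stretch holds a further copy, left in lower case.

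Of 28 DNA replication genes, 8 were called higher in the CDKN1A libraries and 0 in the SPP1 libraries (median log2 fold change 0.14), with 13 and 0 at an unadjusted p under 0.05, 7 and 0 by DESeq2 and 3 and 0 by limma voom. Thymidylate synthase, TYMS, was at 199, 183, 179 and 180 CPM against 141, 147 and 169 CPM in the SPP1 libraries, without overlap (log2 0.31 ± 0.06, adjusted p = 0.00167). RRM1, the large subunit of ribonucleotide reductase, was at 202 ± 7.19 CPM against 174 ± 6.59 CPM (0.22, adjusted p = 0.00289), and the helicase subunit MCM4 differed by 0.22. The 8 calls are 28.6% of the list, beside 12% of all genes tested. This count depended on guides and on single libraries. With both libraries of a guide summed it was 0 (10 at an unadjusted p under 0.05), and without CDKN1A guide 2 it was 2 (9 at an unadjusted p under 0.05). Without CDKN1A guide 1 it was 3 (10 at an unadjusted p under 0.05), and with the transcript length offset 3. It was 3 without CDKN1A guide 1 replicate 1, CDKN1A guide 1 replicate 2 or CDKN1A guide 2 replicate 1, 4 without CDKN1A guide 2 replicate 2, SPP1 guide 1 replicate 1, SPP1 guide 1 replicate 2 or SPP1 guide 2 replicate 2, 5 without SPP1 guide 2 replicate 1 or SPP1 guide 3 replicate 1, and 10 without SPP1 guide 3 replicate 2. Among G1 regulators, E2F7, an E2F repressor that p53 induces, was at 123, 129, 133 and 134 CPM against 86.2, 92.8 and 101 CPM (log2 0.46 ± 0.07, adjusted p = 2.34e-04), with the controls at 98.6 to 131 CPM. CDK6 (0.37) and E2F3 (0.22) were also called higher in the CDKN1A libraries and cyclin CCND3 (-0.22) higher in the SPP1 libraries, out of 15 tested. In all, 26.7% of this list was called, beside 12% of all genes tested. The E2F3 and CCND3 calls ended without any 1 of several libraries, with adjusted p-values up to 0.0883 and 0.15 there.

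Of 15 CDK inhibitors, pocket proteins and partners of the DREAM complex besides CDKN1A, 5 were called higher in the CDKN1A libraries and 0 in the SPP1 libraries (median log2 fold change 0.08), with 7 and 1 at an unadjusted p under 0.05, 5 and 0 by DESeq2 and 2 and 0 by limma voom. The 5 calls by edgeR are 33.3% of the list, beside 12% of all genes tested. LIN9, a MuvB subunit, was at 17.3, 18.9, 17 and 18.4 CPM against 11.7, 13.4 and 14.6 CPM in the SPP1 libraries (log2 0.43 ± 0.07, adjusted p = 0.00105). The pocket protein RBL1 was at 50.5 ± 1.65 CPM against 43.6 ± 1.2 CPM (0.21, adjusted p = 0.00659), with 50.3 CPM in the controls. LIN54 (0.27), RB1 (0.20) and CDKN1C (1.08, at 1.83 to 3.32 CPM against 0.666 to 2.29 CPM) were the other 3. The count was 2 without CDKN1A guide 1 replicate 1, CDKN1A guide 1 replicate 2 or CDKN1A guide 2 replicate 1, and 3 without SPP1 guide 1 replicate 1, SPP1 guide 2 replicate 2 or SPP1 guide 3 replicate 1. It was 2 without CDKN1A guide 1, 1 without CDKN1A guide 2, 2 with the transcript length offset and 0 with both libraries of a guide summed. At an unadjusted p under 0.05 the summed fit gave 5 higher in the CDKN1A libraries and 1 in the SPP1 libraries.

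**Figure D4:**
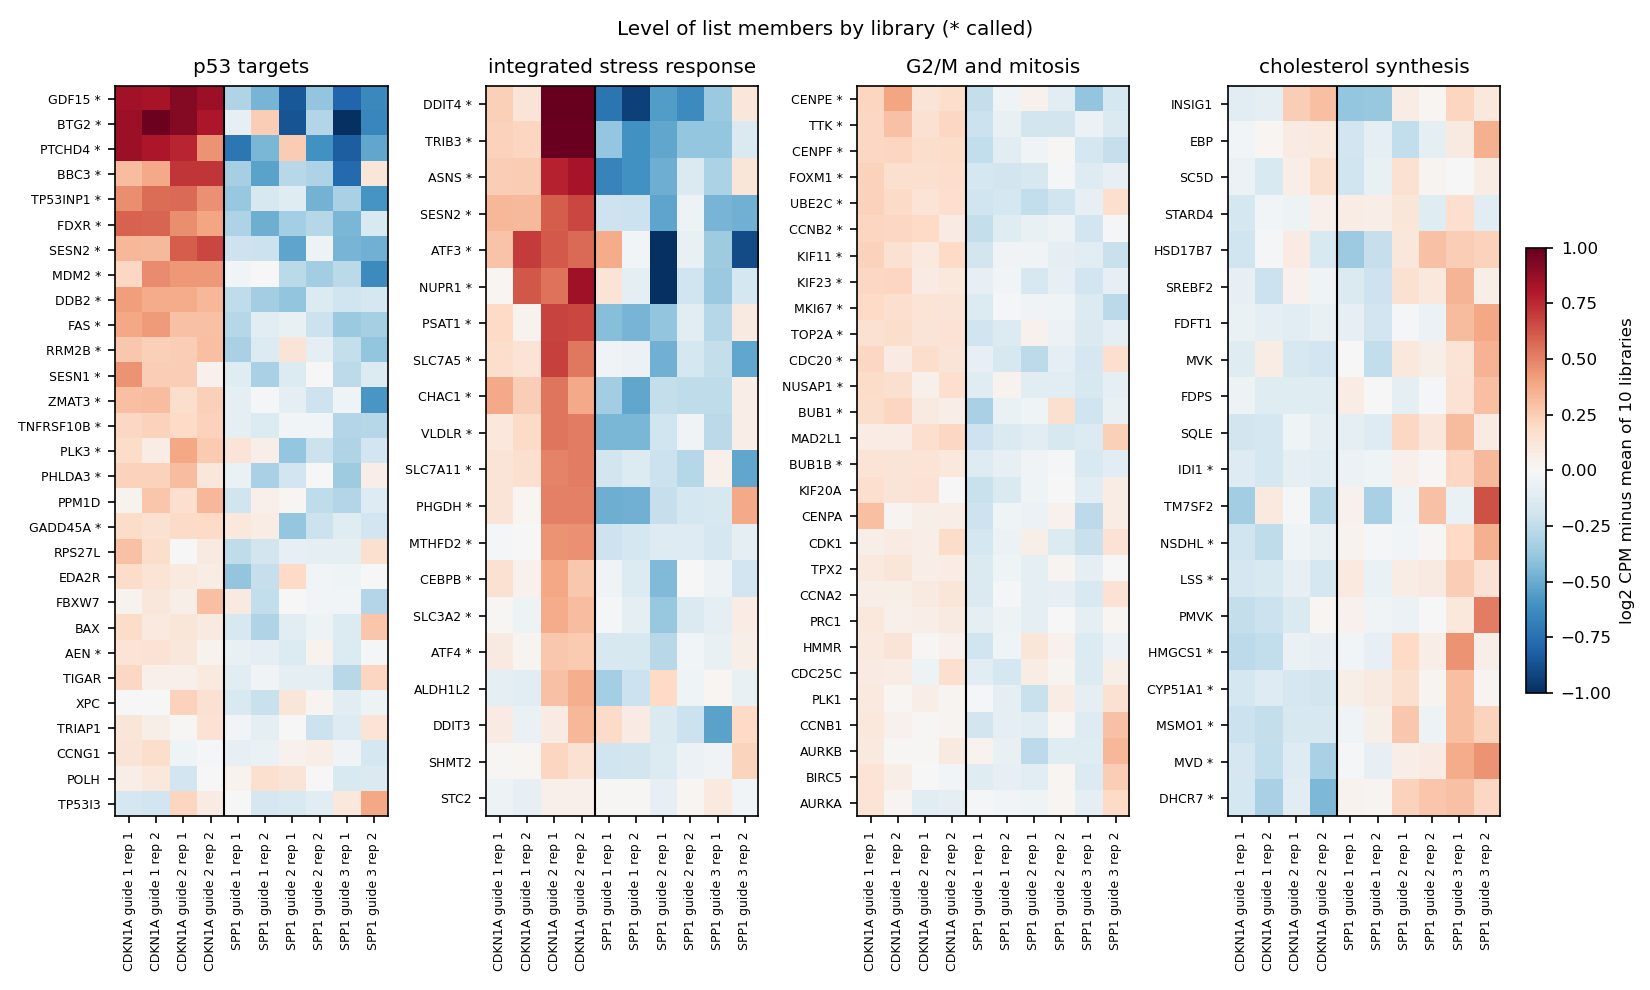
Log2 CPM of tested p53 target, integrated stress response, G2/M and cholesterol synthesis genes (without those not reported here) in the 4 CDKN1A and 6 SPP1 libraries, relative to the gene's mean over the 10 libraries; colours are capped at -1 and 1 and called genes carry an asterisk. The stress response genes are reddest in the libraries of CDKN1A guide 2, whereas p53 targets such as GDF15 and DDB2 are at similar levels with both CDKN1A guides.

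Of 23 tested cholesterol synthesis genes, 9 were called higher in the SPP1 libraries, 0 in the CDKN1A libraries and 14 were not called, with a median log2 fold change of -0.21 (range -0.44 to 0.14). At an unadjusted p under 0.05 the counts were 12 and 0, by DESeq2 9 and 0 and by limma voom 5 and 0. The 9 calls by edgeR are 39.1% of the list, beside 12% of all genes tested. DHCR7, which makes cholesterol from 7-dehydrocholesterol in the last step of synthesis, was at 39.9, 36.1, 41.8 and 33 CPM in the CDKN1A libraries and at 46, 52.5 and 55.2 CPM (lowest, median, highest) in the SPP1 libraries. The groups did not overlap (log2 -0.44 ± 0.09, adjusted p = 0.00353), and the controls, at 48.1 to 49.2 CPM, lay within the SPP1 range. The lanosterol demethylase CYP51A1 was at 57.6, 59.6, 58.1 and 57.5 CPM against 66.3, 68.6 and 80.1 CPM (-0.28 ± 0.05, adjusted p = 0.00263). MVD (-0.37), MSMO1 (-0.33), LSS (-0.24) and HMGCS1 (-0.28) were called as well. SQLE and the regulators SREBF2 and INSIG1 were not called. The count was 5 without CDKN1A guide 1 replicate 1, CDKN1A guide 1 replicate 2, CDKN1A guide 2 replicate 1 or SPP1 guide 3 replicate 1, and 4 without CDKN1A guide 2 replicate 2. It was 2 without CDKN1A guide 1, 0 without CDKN1A guide 2 (12 at an unadjusted p under 0.05), 3 with the transcript length offset and 0 with the libraries of a guide summed (9 at an unadjusted p under 0.05). The letters TCACNCCAC of the sterol regulatory element occurred in 1 of the 18 members with a promoter window (SREBF2) and in 1.13% of windows of genes tested.

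Of 8 tested genes of the SIBLING family and of known osteopontin receptors, CD44, the hyaluronan and osteopontin receptor, was called higher in the CDKN1A libraries, at 1193 ± 37.9 CPM against 1071 ± 44.9 CPM (log2 0.16, adjusted p = 0.0202), and the integrin subunit ITGA5 higher in the SPP1 libraries, at 526 ± 32.3 CPM against 453 ± 8.41 CPM (-0.22, adjusted p = 0.0311). Neither call held without single CDKN1A guide 2 libraries: the adjusted p was 0.0667 and 0.0747 for CD44, and 0.0644 and 0.0948 for ITGA5, without replicate 1 or replicate 2. The ITGA5 call also ended without CDKN1A guide 1 replicate 1 (0.0698) or replicate 2 (0.0769) and without SPP1 guide 1 replicate 1 (0.0652) or replicate 2 (0.0545). Limma voom with the guide as a correlated block called neither gene. The edgeR calls of CD44 and ITGA5 make up 25.0% of this short list, beside 12% of all genes tested. Contractile genes gave 0 calls among 23 tested by edgeR (median 0.02), with 1 higher in the CDKN1A libraries and 2 in the SPP1 libraries at an unadjusted p under 0.05, 2 called by DESeq2 and 0 by limma voom, and YAP and TEAD targets 1 among 20, ARHGEF17 (-0.14). That call ended in limma voom, in the fit of the 10 libraries alone, with guides summed, and without any of 7 single libraries: each CDKN1A library, both of SPP1 guide 1 and SPP1 guide 3 replicate 1 (adjusted p 0.0534 to 0.162).

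Matrix genes held calls in both directions. LAMA4, a laminin chain of vascular and adipose basement membranes, was at 9.15, 9.53, 6.63 and 5.55 CPM in the CDKN1A libraries and at 14.1, 16.3 and 19.6 CPM in the SPP1 libraries (log2 -1.08 ± 0.14, adjusted p = 1.16e-04), with 10.1 CPM in the controls; the call ended with the offset for transcript length. COL6A1 was at 1202 ± 44 CPM against 1527 ± 97.3 CPM (-0.34, adjusted p = 5.62e-04). In the other direction, COL12A1, a fibril-associated collagen, was at 254 ± 17.4 CPM against 192 ± 13.7 CPM (0.41, adjusted p = 3.07e-04), and the microfibril gene FBN2 at 490 ± 10.4 CPM against 344 ± 39.1 CPM (0.51, adjusted p = 7.02e-04). In all, 1 of 17 collagens was called higher in the CDKN1A libraries and 2 in the SPP1 libraries, and 3 and 4 of 24 matrix glycoproteins and proteoglycans. The collagens' share of calls, 17.6%, is near the 12% of all genes tested, and that of the glycoproteins and proteoglycans was 29.2%. Limma voom called 1 and 1 of the collagens and 2 and 3 of the glycoproteins and proteoglycans, and with guides summed the counts were 1 and 0, and 0 and 1. Of 18 crosslinking and collagen-processing genes, 17 had negative fold changes (median -0.12), and LOXL1 (-0.27), P4HA1 (-0.35) and LOXL3 (-0.58) were called higher in the SPP1 libraries (16.7%, near the 12% of all genes). Limma voom called 1 member, and edgeR called 0 without CDKN1A guide 1 (5 at an unadjusted p under 0.05) and 0 with guides summed (4 at an unadjusted p under 0.05). The P4HA1 and LOXL3 calls ended without several single libraries (adjusted p up to 0.0872 and 0.108), and the count was 1 without CDKN1A guide 1 replicate 1, CDKN1A guide 1 replicate 2 or CDKN1A guide 2 replicate 2, and 2 without SPP1 guide 1 replicate 2 or SPP1 guide 2 replicate 2.

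Of 21 TGF-beta targets and feedback genes, 5 were called higher in the CDKN1A libraries and 1 in the SPP1 libraries (median 0.28). This share of calls, 28.6%, stands beside 12% of all genes tested. The receptor TGFBR1 was at 35.7 ± 2.44 CPM against 27.6 ± 0.858 CPM (log2 0.37, adjusted p = 7.06e-04). The inhibitory SMAD gene SMAD7 was at 67.1 and 62.6 CPM with CDKN1A guide 1 and at 108 and 109 CPM with guide 2, against 51.9 ± 6.66 CPM in the SPP1 libraries (0.73, adjusted p = 0.00716). The controls, at 84.1 to 92.2 CPM, lay between the CDKN1A guides. By guide pair the fold change was 0.21 to 0.54 for guide 1 and 0.95 to 1.28 for guide 2, and the call ended without CDKN1A guide 2 and with guides summed. LTBP1, which anchors latent TGF-beta in the matrix, was higher in the SPP1 libraries (-0.21, adjusted p = 0.00595). Without CDKN1A guide 2 replicate 1 or replicate 2, 3 members of this list were called, with the transcript length offset 3, without CDKN1A guide 2 1 (4 at an unadjusted p under 0.05), and with guides summed 0 (8 at an unadjusted p under 0.05).

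Large differences were found mostly in genes of few transcripts, and genes whose log2 CPM averaged under 1 were not ranked by fold change. TNFSF9, named as a member of the cytokine list since its mean log2 CPM of 0.93 kept it out of that ranking, encodes the ligand of the T-cell costimulatory receptor TNFRSF9 (chromosome 19, 6530999 to 6535928). It was at 7.32, 5.64, 6.42 and 7.91 CPM in the CDKN1A libraries and at 0.333, 0.638 and 1.64 CPM (lowest, median, highest) in the SPP1 libraries. The groups were well apart, 8.57-fold in the fit (log2 3.10 ± 0.35, adjusted p = 3.78e-05). The controls, at 0.396 to 1.73 CPM, covered nearly the same range as the SPP1 libraries, and the CDKN1A libraries were 6.53-fold above them (adjusted p = 0.00125). UNC5B, a netrin receptor (chromosome 10, 71212570 to 71302864), was at 4.61 and 4.09 CPM with CDKN1A guide 1 and at 12.2 and 12.6 CPM with guide 2. Its lowest, median and highest SPP1 levels were 0.685, 1.43 and 1.77 CPM, below all CDKN1A libraries (6.16-fold, log2 2.62 ± 0.33, adjusted p = 7.80e-05), and the controls lay at 2.07 to 3.27 CPM. GFRA1, a co-receptor for GDNF, was at 6.88, 6.35, 6 and 6.08 CPM against 0.749, 2.33 and 3.68 CPM (log2 1.45 ± 0.26, adjusted p = 0.00141), and here the controls, at 4.19 to 6.13 CPM, lay next to the CDKN1A libraries. The 12 largest in this ranking were, besides UNC5B and GFRA1, MSC (1.76), SULF1 (1.41), ADM2 (1.30), CADM1 (1.27), MN1 (1.26) and FABP4 (1.22), with SPP1, GDF15, DDIT4 and BTG2 already described. FABP4 also held nearly all of the adipocyte marker level (20.2 to 29.1 TPM over 5 markers against 8.37 to 13.8 TPM), while PLIN1, ADIPOQ, LEP and CIDEC stayed under 1 TPM in all 10 libraries. The CADM1 call ended without several single libraries (adjusted p up to 0.11). Without CDKN1A guide 2 the calls of MSC, ADM2, MN1 and DDIT4 ended, and without CDKN1A guide 1 those of SULF1 and FABP4. With guides summed all of these ended, as did those of GFRA1 and BTG2.

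Among genes higher in the SPP1 libraries, NPTX1, a neuronal pentraxin (chromosome 17, 80467148 to 80477843), was at 53.6, 56.5, 43.3 and 38.3 CPM in the CDKN1A libraries and at 80.7, 144 and 166 CPM in the SPP1 libraries. The groups did not overlap, and SPP1 guide 1 (82.6 and 80.7 CPM) lay below the other SPP1 guides (log2 -1.43 ± 0.21, adjusted p = 2.77e-04). The controls were at 46.2 to 77 CPM, and the SPP1 libraries had a log2 difference of 1.10 from them (adjusted p = 0.00574). MYPN, a sarcomere protein that binds actin and titin, was at 13.8, 12, 6.77 and 9.58 CPM against 18.4, 26.7 and 27.6 CPM (-1.27 ± 0.16, adjusted p = 8.28e-05), with the controls between (16.7 to 19.9 CPM). MLPH, which links melanosomes to myosin, was at 17.7, 17, 10.7 and 12.8 CPM against 27.6, 31.7 and 34.8 CPM (-1.12 ± 0.13, adjusted p = 4.36e-05), with the controls at 18.6 to 21.7 CPM. The chitin-binding receptor FIBCD1 was at 2.57 ± 0.318 CPM against 5.68 ± 0.621 CPM (-1.14, adjusted p = 4.46e-05), with 5.48 CPM in the controls. NOTCH3, a Notch receptor known from vascular mural cells, was at 8.71, 7.91, 5.72 and 6.08 CPM against 10.4, 14.8 and 19.1 CPM (-1.03 ± 0.17, adjusted p = 6.53e-04); the call ended with the transcript length offset. CTSZ (-1.19), NEFM (-1.14), RDH5 (-1.10), SLC1A1 (-1.03), ENSG00000215861, an unprocessed pseudogene (-1.28), and ENSG00000257207 (-1.31) complete the 12 together with LAMA4 (-1.08). Calls of NEFM and ENSG00000257207 ended without several single libraries (adjusted p up to 0.162 and 0.0857), and the pseudogene's counts may be shared with related copies. The CTSZ call ended without CDKN1A guide 1, and that of the pseudogene without CDKN1A guide 2. Both ended with guides summed, as did those of NPTX1, NEFM and ENSG00000257207.

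**Figure D5:**
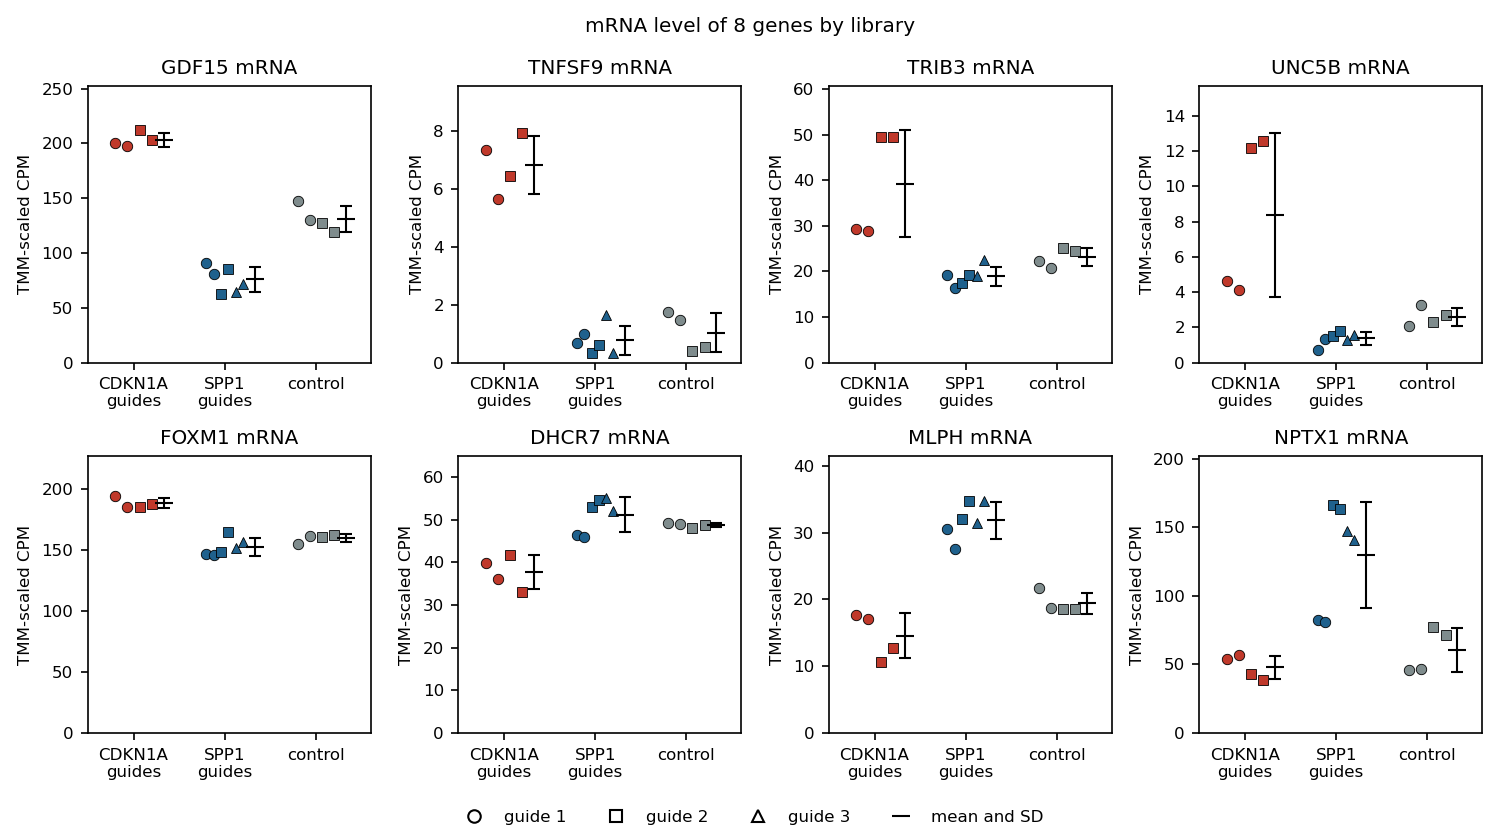
Level in TMM-scaled CPM of 8 named genes in each library of the CDKN1A, SPP1 and control groups, with guides shown by symbol and group mean and SD beside the points. The upper genes are higher with CDKN1A guides, TRIB3 and UNC5B most with guide 2; FOXM1 is higher by a small margin, and DHCR7, MLPH and NPTX1 are lower.

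Besides the 2 targets, 121 named genes were called. Of these, 82 kept their call whichever library was left out and 40 whichever guide was left out. With both libraries of a guide summed, 23 kept their call and 98 lost it. Limma voom with the guide as a correlated block kept 85. In every alternative that was run, 21 remained called, among them GDF15, TNFSF9, UNC5B, TP53INP1, DDB2, SESN2, TRIB3, TTK, E2F7, COL12A1, MYPN, MLPH and FIBCD1. None of the 121 changed direction in the group comparison under these alternatives. Between single guides, some had a fold change of the opposite sign in 1 pair each: SFRP1 (0.42, adjusted p = 0.353, edgeR), CLDN11 (0.02), NRP1 (0.01) and ERN1 (-0.00, adjusted p = 0.996).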

How the data were processed

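Each library has 1 kallisto table with 188753 Ensembl transcripts on GRCh38, per the file headers and the submitters' processing notes, which state no kallisto version. The estimated counts were made by the authors with kallisto and deposited unscaled; TPM, as the authors deposited them, were used only for marker levels, and effective lengths only in 1 alternative. Transcripts were matched by Ensembl ID to GENCODE 29 (169797, 89.96%, to 35579 genes); unmatched ones held 2.494 to 2.542% of the counts in the 10 libraries. Counts were summed per gene, rounded and filtered (edgeR 4.0.16 filterByExpr, count minimum 10, R 4.3.3), leaving 13527 genes. A quasi-likelihood fit with TMM scaling and 1 coefficient per group used all 18 libraries, so control and KDM1A libraries (4 each) contributed to the spread. Adjusted p-values are Benjamini-Hochberg over all genes tested, and calls are at an adjusted p under 0.05. SE is the log2 fold change over the root of F; log2 CPM have a prior count of 2. The members and gene lists were chosen with earlier results of these data known. Named genes are the targets, the 12 largest fold changes each way among called genes (mean log2 CPM at least 1, 1 direction in every guide), and up to 4 called members of each list by p, and other members given by value were picked after their values were seen. Genes of the histocompatibility region, chromosome Y and XIST are neither named nor plotted. Some other genes are counted in their lists but not reported here by name. No guide's libraries agreed within sampling noise. The fit was tested on simulated data. Alternatives were other scalings, filters and tools (DESeq2 1.42.0, limma 3.58.1), guide-level fits and leaving out libraries or guides. Promoter windows are RefSeq's, GRCh38.p14.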

Additional observations from a re-analysis of the deposited data

Results flagged for a closer look

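Values of named genes were screened within each group of 4 or 6 libraries for a lowest or highest library whose gap to its neighbour took up most of the group's range (Dixon's 95% critical value, 0.829 for 4 and 0.625 for 6 libraries). Of 250 groups, 17 had such a library (6.8%), where chance gives about 1 in 20, and 5 of the 17 fell on SPP1 guide 3 replicate 2, the library that also stands apart on the second principal component.

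In SPP1 guide 3 replicate 2, GFRA1 was at 0.749 CPM (other SPP1 libraries 2.12 to 3.68 CPM), MYPN at 18.4 CPM (26.3 to 27.6 CPM) and RUNX1 at 43.3 CPM (53.9 to 59.3 CPM), all below the other SPP1 libraries. In the same library PCNA was at 183 CPM (147 to 154 CPM) and LDHA at 1734 CPM (1431 to 1506 CPM), above them. In SPP1 guide 3 replicate 1, SMAD6 was high at 33 CPM (16.9 to 20 CPM), as was H2BC12 at 10.9 CPM (6.98 to 8.18 CPM). In SPP1 guide 2 replicate 1, IER2 was low at 76.3 CPM (104 to 117 CPM) and so was CLDN11 at 2.29 CPM (6.33 to 9.89 CPM), and in SPP1 guide 1 replicate 1 UNC5B was at 0.685 CPM (1.3 to 1.77 CPM).

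Among the CDKN1A libraries, guide 1 replicate 1 was high for FOXM1 (195 CPM, others 186 to 188 CPM) and EGR1 (106 CPM, others 92.1 to 93.6 CPM) and low for E2F3 (40.9 CPM, others 42.1 to 42.3 CPM). Guide 2 replicate 1 was high for P4HA1 (77.2 CPM, others 74.3 to 74.5 CPM) and ITGA5 (465 CPM, others 447 to 450 CPM) and low for ETV4 (17.8 CPM, others 19.1 to 19.3 CPM); these gaps are small beside the levels. ENSG00000257207 was at 0 CPM in CDKN1A guide 2 replicate 2 and at 1.88 to 2.9 CPM in the other CDKN1A libraries.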

How the results depend on the processing

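The count of 1628 called genes moved most with how guides were treated. It was 2839 with a coefficient per guide, 775 with limma voom and the guide as a correlated block, and 111 (76 of them higher in the CDKN1A libraries) when both libraries of a guide were summed into 1 sample. Of these, 1626, 773 and 109 were among the 1628 in the same direction. An offset for transcript length gave 765 (679 shared). It was 912 without CDKN1A guide 1 and 299 without CDKN1A guide 2 (205 higher in the CDKN1A libraries), and leaving out single libraries gave 862 (without CDKN1A guide 2 replicate 1) to 1741 (without SPP1 guide 2 replicate 1). The causes were not tested. CDKN1A mRNA kept its direction but missed the threshold with guides summed (-0.46, adjusted p = 0.173), with the length offset (-0.35, 0.072) and without CDKN1A guide 1 (-0.19, 0.283); leaving out single libraries gave -0.57 to -0.36, with the call lost without either library of that guide. SPP1 mRNA was called under each alternative run. For the guide pairs, no low-count filter gave 1215, 1077 and 1811 calls for CDKN1A guide 1 against SPP1 guides 1, 2 and 3. A fit of the 10 libraries alone gave 333, 276 and 518, and for CDKN1A guide 2 it gave 1009, 710 and 1319. Replicate numbers did not pair the samples (same-number correlations of deviations -0.057 to 0.031), and with the replicate block 1475 genes were called. Counts of 13304 genes were simulated for this comparison. Of genes changed by 0.5 on the log2 scale 72.6% were called, and 94% of those changed by 1, so small differences can be missed. In the simulation 12 calls, 6.9% of them all, were false. The simulated libraries were independent, with 1 common spread and no difference between guides of a target. In the real libraries such guides held 34.1% of the variation, so the share of false calls there was not measured.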

Other observations

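Several further lists held calls in both directions. In the insulin and IGF axis, the adaptor IRS2 was at 80.4, 76.6, 83.1 and 75.3 CPM in the CDKN1A libraries and at 39.1, 53.5 and 60.2 CPM (lowest, median, highest) in the SPP1 libraries (log2 0.61 ± 0.09, adjusted p = 3.28e-04, edgeR), with the controls at 76.2 to 85.3 CPM. Its paralog IRS1 was at 195, 177, 198 and 176 CPM against 241, 256 and 269 CPM (-0.46 ± 0.06, adjusted p = 9.53e-05), with the controls at 223 to 271 CPM. So IRS2 was low in the SPP1 libraries beside control, IRS1 was low in the CDKN1A libraries, and neither had overlapping groups. The binding protein IGFBP4 was at 412 ± 26.2 CPM against 611 ± 57.2 CPM (-0.57, adjusted p = 2.04e-04). Of 12 genes of this axis, 3 were called higher in the CDKN1A libraries and 2 in the SPP1 libraries (41.7%, beside 12% of all genes tested).

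The caveolar genes CAV1 (-0.31, adjusted p = 0.00679) and CAV2 (-0.27, adjusted p = 6.81e-04) were higher in the SPP1 libraries. Both calls ended without CDKN1A guide 2 and with guides summed, and that of CAV1 also with the transcript length offset. CAVIN2, which shapes caveolae, was higher in the CDKN1A libraries, at 16.3, 14.8, 10.4 and 10.7 CPM against 5.76, 6.62 and 7.14 CPM (1.01 ± 0.14, adjusted p = 1.26e-04). The neurotrophin BDNF was at 138, 135, 114 and 113 CPM in the CDKN1A libraries and at 172, 188 and 226 CPM in the SPP1 libraries (-0.65 ± 0.08, adjusted p = 5.01e-05). The transcription factor RUNX1 was at 75.7 ± 3.47 CPM against 54.8 ± 6.03 CPM (0.46, adjusted p = 3.07e-04). BDNF, RUNX1, CAVIN2, IRS1 and IRS2 kept their calls under each alternative run. In the hypoxia and glycolysis list, 24 genes were tested. HK2 (-0.36), CA12 (-0.70), LDHA (-0.20) and ANKRD37 (-0.87) were higher in the SPP1 libraries and PFKFB3 (0.57) in the CDKN1A libraries. That share of calls, 20.8%, is near the 12% of all genes tested. The LDHA call ended without CDKN1A guide 1 replicate 2 or either library of CDKN1A guide 2 (adjusted p 0.0506 to 0.0655). Without CDKN1A guide 2 the CA12 and PFKFB3 calls ended. With guides summed those of HK2, CA12, LDHA and PFKFB3 ended.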
